A study of Mus musculus with 4 samples.

Results

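The genes described here are the ribosome biogenesis factors and RNA helicases of the array, taken by gene symbol: all genes with 1 platform symbol of the families Nop, Noc, Nol, Utp, Rrp, Imp, Polr1, Npm, Ddx and Dhx, with Rrs1, Bop1 and Ncl, and without the RNA sensors Ddx58 and Dhx58. This gave 63 of 6404 measured genes, read by 96 of 10861 probe sets. A single probe set read 40 of the 63, and 23 had several. By role, 45 belong to ribosome biogenesis and 18 are helicases of other RNA steps or share only the family name. Ddx28, a helicase of mitochondrial ribosome assembly, was counted among the 18. The rule reads symbols and no measured value, although it was set with earlier results of these data known.

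The cells were EML, a mouse lymphohematopoietic progenitor line maintained in stem cell factor (SCF), which binds the receptor tyrosine kinase KIT. The KIT mutant of one line was Del417-419insY, an extracellular domain change, and that of the other D816V, in the phosphotransferase domain. Both constructs were delivered by pLXSN retrovirus, both populations were selected with geneticin and for growth without added factor, and both were sorted for KIT. Each was profiled with no agent and after 48 h with SCF at 250 ng/mL, which gave 4 groups of 1 array each: Del417-419insY without SCF, D816V without SCF, Del417-419insY with SCF and D816V with SCF. Each line is 1 selected population without a replicate, no wild-type KIT control was analysed, and no source used here gives a time for the cultures without SCF. The number of arrays limits the precision.

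Values were log2 and centred near 0 on a reference that is not given, so they show differences between arrays and not absolute levels, and no gene's level can be set against another's. For the same reason the presence of EML markers could not be read. Of 10 measured progenitor genes 6 were lower and 2 higher in D816V cells, the largest being Gfi1 (-1.82 on the log2 scale) and Sox4 (-1.71), and Slamf1 (1.62) and Gata2 (0.46). Among genes of other cell types, 4 of 9 erythroid genes were lower (Car1 -2.95, Ermap -1.71) and 2 higher (Icam4 0.92, Car2 0.74). Of 7 granulocyte and monocyte genes 2 were lower (Mpo -1.64, Csf3r -0.96) and 1 higher (Ccr2 2.88). Of 2 lymphoid genes Ltb was higher (1.765) and Satb1 lower (-1.32). These are means over both conditions. Gfi1 differed by -0.72 without SCF and -2.92 with SCF, and Satb1 by -0.79 and -1.85. Genes of mast cells stood apart between the lines: 13 of 16 measured genes were called higher in D816V cells, led by Fcer1a (6.06) and Tph1 (5.37), and 1, Kit, lower (-1.42), and the list's median relative level was -0.87 and -1.003 on the Del417-419insY arrays without and with SCF and 0.58 and 0.053 on the D816V arrays. What part this has in the differences below was not tested, and in a bulk culture fewer cells of a type and less RNA per cell cannot be told apart. Over all probe sets the array medians lay between -0.20, on D816V with SCF, and -0.015. Centring each array on its median moved the median genotype difference of all genes from -0.10 to 0.016.

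Ribosomes are built in the nucleolus. RNA polymerase I transcribes the precursor of the ribosomal RNAs, small nucleolar ribonucleoproteins modify it, and a large assembly called the small subunit processome cleaves and folds the part that becomes the small subunit, while other factors mature the large subunit. DEAD-box (Ddx) and DEAH-box (Dhx) proteins are ATP-driven enzymes that remodel RNA, in ribosome assembly and also in splicing, mRNA export, translation and decay. The demand for ribosomes rises with cell growth, and MYC is a known activator of many of these genes.

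The comparison of the mutants asks how these genes differ between cells with an extracellular and cells with a phosphotransferase domain mutant of KIT. Most members differed little. In a limma fit over all genes with genotype and SCF as additive terms, 14 members were called lower and 4 higher in D816V cells at an adjusted p under 0.05, and 45 were not called. That is 28.6% of the members, against 42.6% of all 6404 genes; the background was 24.7% lower and 17.9% higher. Over the members the median was -0.135 on the arrays without SCF and -0.155 on those with it, and over all genes -0.078 and -0.14. With each array centred on its median, 12 members were called higher and 11 lower (36.5% called, against 47.2% of all genes). Over all genes the calls went from 1147 higher and 1579 lower to 1720 higher and 1302 lower. The balance of directions thus depended on the scaling, in the members and in the whole table. Of the 18 calls 13 held under all 4 scalings, and 6 held with the SCF term left out of the model: Ddx18, Ddx49, Ddx59, Imp4, Utp14b and Utp25. Calls lost there include Ncl (limma adjusted p = 0.14), Ddx6 (0.26) and Polr1e (0.085), and also Rrp15, Rrs1 and Utp23. The fit takes the gap between the SCF responses of the lines as its error, with 1 residual degree of freedom and no repeat array, so its p-values cover neither repeat cultures nor repeat populations.

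By size, 1 member was 1.5-fold or more higher without SCF (12.2% of all genes were) and 6 lower (12.6%), and with SCF 2 were higher (13.2%) and 8 lower (20.4%). The calls with the largest fold under both conditions were in 5 genes that were 1.5-fold or more apart in 1 direction under both conditions, 4 lower (6.35% of members, against 10.9% of all genes) and 1 higher (1.59%, against 9.6%). Ddx59, a DEAD-box protein with a zinc finger, had relative levels of 0.60 and 0.94 in Del417-419insY cells without and with SCF, and -0.67 and -0.69 in D816V cells. Both D816V arrays lay below both others, and the mean difference was -1.46 (SE 0.14, limma adjusted p = 0.0021), or 2.74-fold lower. It rests on 1 probe set.

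Ddx18, the counterpart of a yeast helicase of large subunit assembly, stood at 0.83 and 0.65 in Del417-419insY cells and at -0.385 and -0.75 in D816V cells. Both D816V arrays again lay below both others, by a mean of -1.31 (SE 0.12, limma adjusted p = 0.0019), which is 2.48-fold. Its 3 probe sets did not give 1 size: the differences were -0.40, -0.68 and -2.85. Without the last, a choice made after the values were seen, the difference was -0.54 (limma adjusted p = 0.020), still called but under 1.5-fold.

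**Figure D1:**
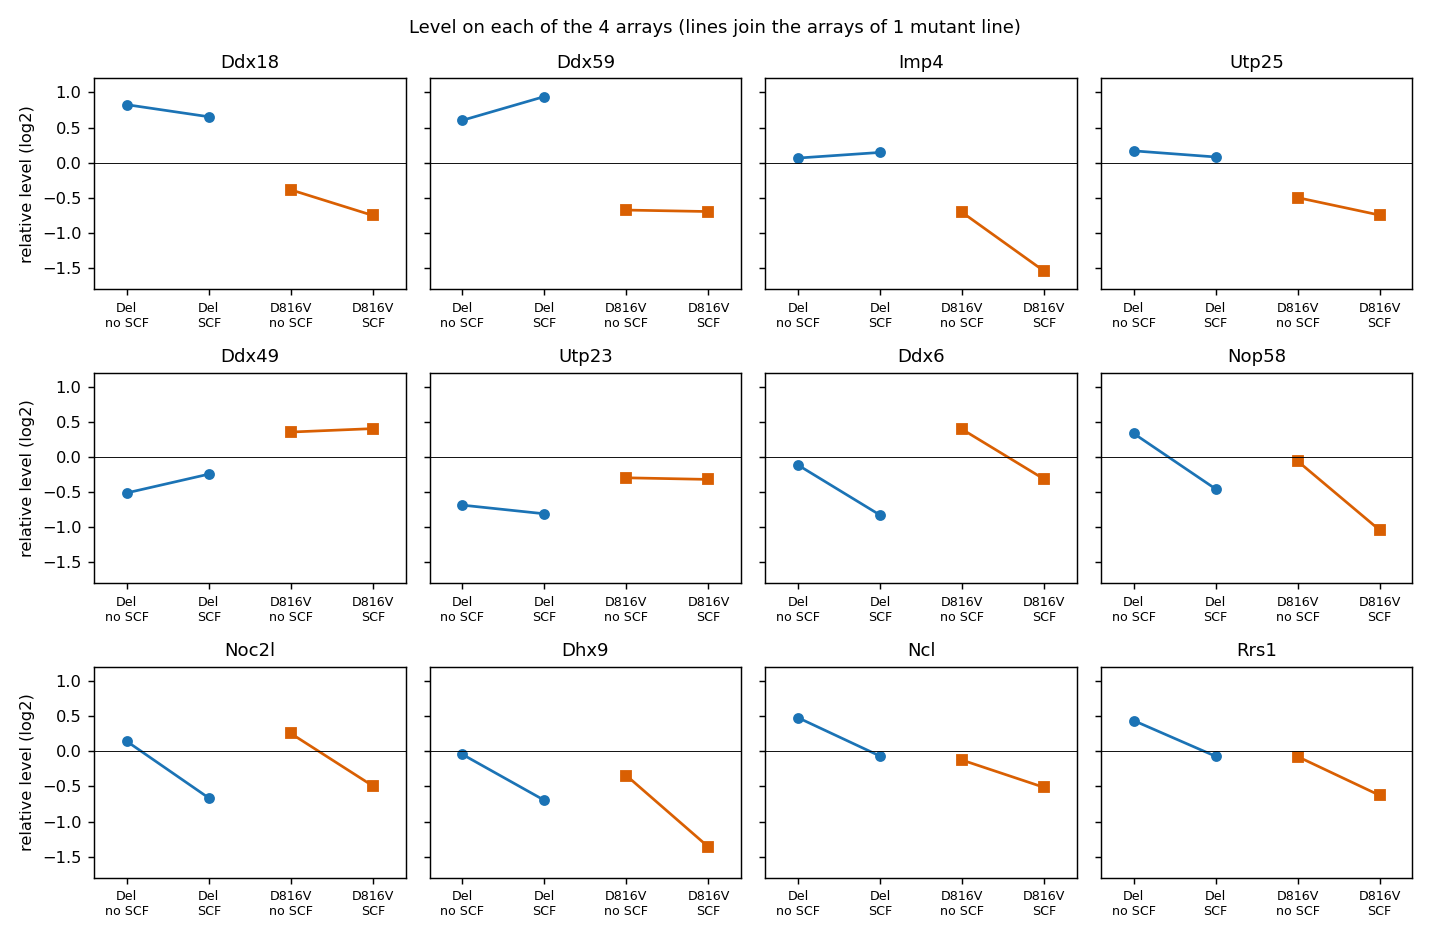
Relative log2 level of 12 members on the 4 arrays, on 1 common axis; each point is 1 array, circles are Del417-419insY and squares D816V, and a line joins the arrays without and with SCF of 1 line. Ddx18, Ddx59, Imp4 and Utp25 are lower and Ddx49 and Utp23 higher on both D816V arrays than on both Del417-419insY arrays, while Ddx6, Nop58, Noc2l and Dhx9 are lower with SCF in both lines.

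In the small subunit processome 3 of 18 measured genes were called lower and 2 higher (27.8% called, against 42.6% of all genes). Imp4, a partner of the U3 small nucleolar RNA, stood at 0.067 and 0.15 in Del417-419insY cells and at -0.705 and -1.54 in D816V cells. The difference was thus -0.77 without SCF and -1.69 with SCF, with a mean of -1.23 (SE 0.23, limma adjusted p = 0.014). The gap in size between the conditions rests on 1 array per group and was not tested. Utp25, a helicase-related processome protein, had levels of 0.17 and 0.083 against -0.50 and -0.74, lower on both D816V arrays. Its difference was -0.75 (SE 0.12, limma adjusted p = 0.0091), with -0.65 and -0.84 from its 2 probe sets. Utp14b, a retrogene copy of the X-linked Utp14a known for its role in spermatogenesis, was at 0.49 and 0.19 against -0.48 and -0.16 (difference -0.66, limma adjusted p = 0.036); whether its probe set also reads Utp14a, which did not pass at -0.38 (limma adjusted p = 0.057), was not tested.

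On the other side, Ddx49, a DEAD-box helicase of small subunit assembly, stood at -0.51 and -0.24 in Del417-419insY cells and at 0.355 and 0.40 in D816V cells. Both D816V arrays lay above both others, by a mean of 0.76 (SE 0.12, limma adjusted p = 0.0096), which is 1.69-fold. Utp23, which takes part in early small subunit processing, was higher by 0.44 (limma adjusted p = 0.035), from -0.685 and -0.81 to -0.30 and -0.32. Called processome genes thus lay on both sides, and the median over the 18 processome genes, -0.094, was close to that of all genes, -0.10.

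Among 16 genes of large subunit assembly 3 were called lower and none higher (18.8% called, against 42.6% of all genes): Ddx18, Rrp15 and Rrs1. Of all genes 24.7% were called lower. The median over the 16 was -0.072, against -0.10 over all genes. Rrp15 stood at 0.115 and -0.13 in Del417-419insY cells and at -0.42 and -0.90 in D816V cells (difference -0.66, limma adjusted p = 0.015). Rrs1, which helps to bring the 5S ribonucleoprotein into the large subunit, stood at 0.44 and -0.072 against -0.076 and -0.63, so that Del417-419insY with SCF and D816V without SCF had like levels; the difference was -0.53 (limma adjusted p = 0.020). The highest value in this group was that of Rrp1b, 0.38, which did not pass (limma adjusted p = 0.064) but passed after centring, cyclic loess and quantile normalization, at 0.50, 0.56 and 0.51.

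Of the 4 measured RNA polymerase I subunits 1 was called higher in D816V cells and 3 were not called (25% called, against 42.6% of all genes). Their mean differences ran from 0.13 for Polr1b, the second largest subunit, to 0.43 for Polr1e, the one called (SE 0.13, limma adjusted p = 0.045). Polr1e stood at -0.31 and -0.37 in Del417-419insY cells and at 0.0010 and 0.18 in D816V cells. Polr1d, a subunit shared with RNA polymerase III, was at 0.32 and did not pass (limma adjusted p = 0.073), though it did after centring, at 0.44. Polr1b differed by -0.10 without SCF and 0.365 with SCF. Its sign thus was not the same under both conditions, with 1 array per group and no test of the change.

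Ncl, which encodes nucleolin, an abundant nucleolar RNA-binding protein, was lower in D816V cells. Its levels were 0.48 and -0.069 against -0.13 and -0.51, and the difference was -0.52 (SE 0.12, limma adjusted p = 0.024), with -0.32 and -0.73 from its 2 probe sets. Of the core proteins of box C/D small nucleolar ribonucleoproteins, which guide ribosomal RNA methylation, Nop58 was called lower (-0.49, limma adjusted p = 0.030) and Nop56 was at -0.13 (limma adjusted p = 0.40). Nop58 did not pass after cyclic loess (-0.28) or quantile normalization (-0.31), and Nop56 was above 0 there, at 0.086 and 0.025. In the mixed group of Rrp8, Rrp12, Ddx21 and Dhx33 none was called, with values from -0.24 for Dhx33 to 0.023 for Rrp8, an RNA methyltransferase.

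**Figure D2:**
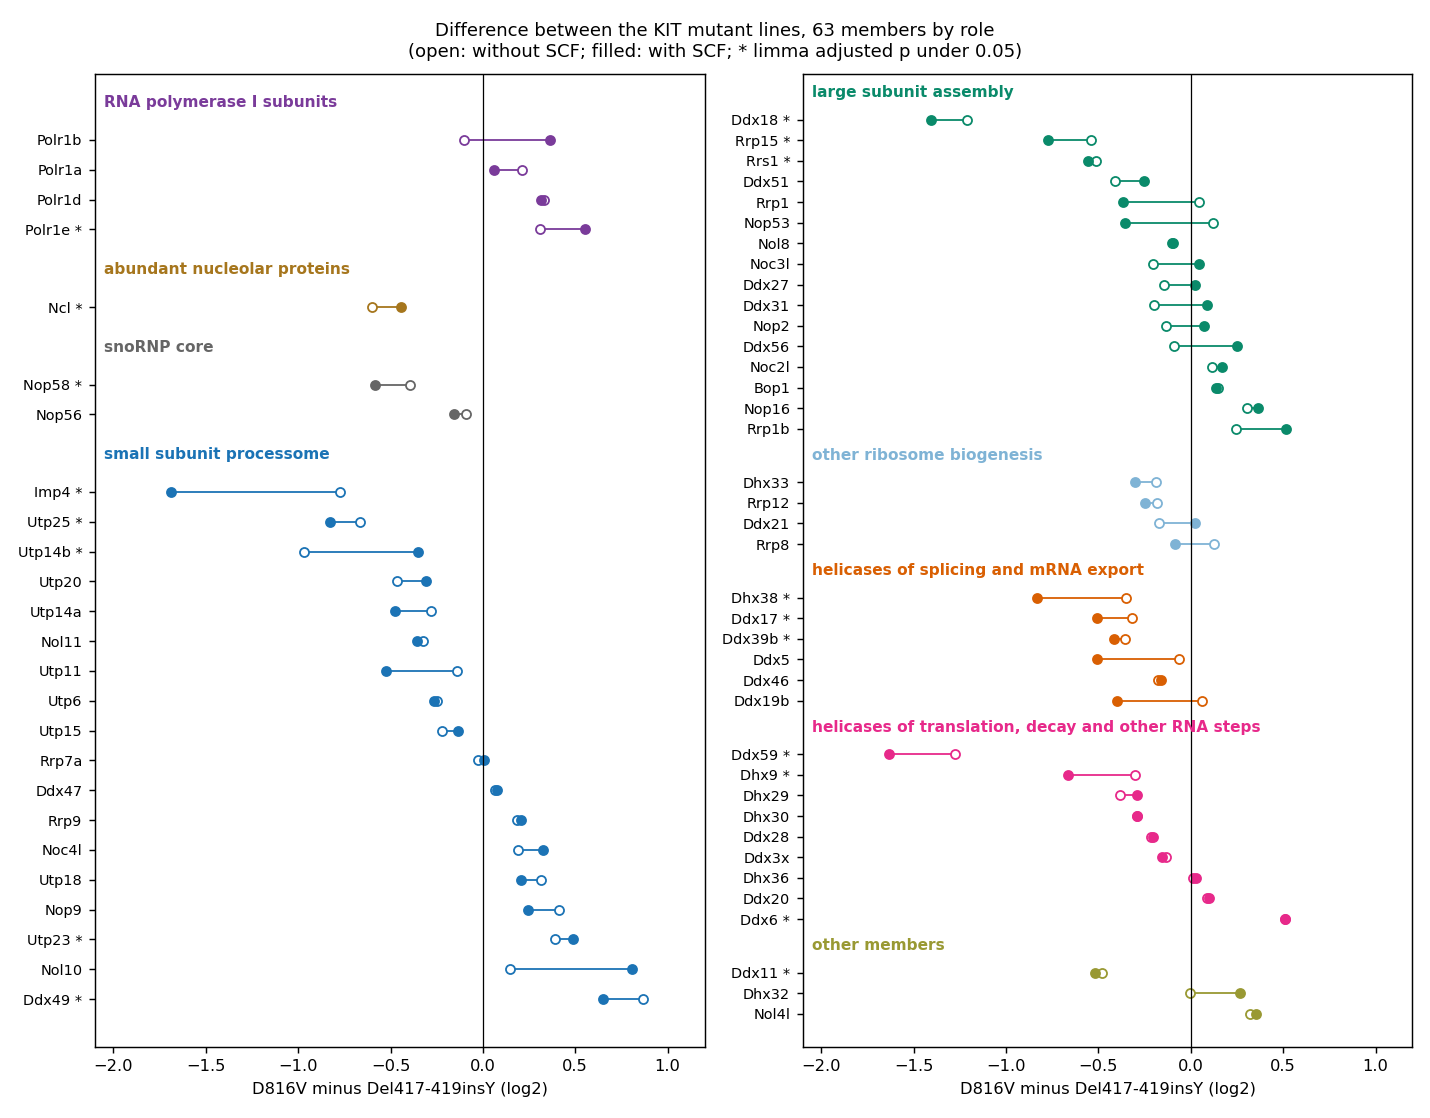
Difference between D816V and Del417-419insY cells (log2, horizontal axis) for the 63 members, grouped by role; open circles are the arrays without SCF, filled circles those with SCF, a line joins both, and an asterisk marks the 18 members called by limma. Of the called members 14 lie below 0 and 4 above, and Imp4 and Ddx59 reach -1.69 and -1.64 with SCF.

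Helicases of splicing and mRNA export were lower or not called. Of 6 measured, 3 were called lower and none higher (50% called, against 42.6% of all genes). Dhx38, which acts in the second step of splicing, was at -0.59 (limma adjusted p = 0.035). Ddx17 was at -0.41 (limma adjusted p = 0.046) and Ddx39b, an mRNA export factor, at -0.39 (limma adjusted p = 0.047). After cyclic loess none of the 6 was called, and Ddx19b, at -0.17 here and not called, was at 0.033 there. Ddx17 and Ddx39b were also not called after centring (-0.29 and -0.27, limma adjusted p = 0.091 and 0.12) or quantile normalization. Among 9 helicases of translation, decay and other steps, Ddx59 and Dhx9 were called lower and Ddx6 higher (33.3% called, against 42.6% of all genes). Ddx6, a decapping activator found in processing bodies, was higher by 0.51 (SE 0.11, limma adjusted p = 0.022). Its 3 probe sets differed by 0.885, 0.57 and 0.073. Without the first, left out after the values were seen, the mean was 0.32 and no longer called (limma adjusted p = 0.072). The second, which has the highest mean relative value, was called on its own (limma adjusted p = 0.017). As values are relative, that does not mark it as the brightest. Dhx9, also called RNA helicase A, was at -0.48 (limma adjusted p = 0.044) and was no longer called after centring (-0.36, limma adjusted p = 0.054). Ddx3x was at -0.145 and not called; its Y-linked copy is nearly identical, and which of them the probe set reads was not tested.

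Of the 3 members that share only the family name or have other roles, Ddx11, a DNA helicase of sister chromatid cohesion, was called lower at -0.50 (limma adjusted p = 0.024). Nol4l stood at 0.34 and did not pass (limma adjusted p = 0.066), but passed after centring, cyclic loess and quantile normalization, at 0.46, 0.57 and 0.49.

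Setting the SCF arrays against those with no agent asks what added ligand does in each line. No member passed the limma test for SCF, and no gene of the table did, 0 of 6404 (0%). At an unadjusted p under 0.05 there were 15 members (23.8%) and 1186 genes (18.5%), and the smallest adjusted p was 0.13 over the members and 0.089 over all genes. The SCF values are therefore descriptions. Members lay lower with SCF more often than other genes: 35 of 63 were below 0 in both lines (55.6%, against 33.2% of all genes) and 11 above 0 in both (17.5%, against 32.3%). After centring, cyclic loess and quantile normalization 26 were below 0 in both (41.3% each time, against 25.3%, 26.0% and 25.2%). The median response was -0.12 in Del417-419insY and -0.094 in D816V cells over the members, and 0.034 and -0.046 over all genes. In D816V cells the members' median was near 0 after scaling, at 0.0015 after centring, -0.0056 after cyclic loess and 0.016 after quantile normalization, where that of all genes was 0.049, 0.049 and 0.053. In Del417-419insY cells it was -0.087, -0.087 and -0.093. The lines' responses share no array; across the 63 genes Pearson's r between them was 0.60 and Spearman's rho 0.53 (0.45 and 0.46 across all genes). Genes on 1 array share its scaling and are not replicates.

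Of the 45 members with ribosome biogenesis roles 28 were below 0 in both lines (62.2%), and of the 18 others 7 were (38.9%). The split, which puts Ddx28 among the 18, was set with earlier results known, and its difference was not tested. At 1.5-fold or more, 4 members were lower in Del417-419insY cells (2.86% of all genes) and 6 in D816V cells (6.45%), and none was higher in either (2.14% and 2.55% of all genes). Of these, 4 members were lower in both lines (6.35%, against 1.55% of all genes) and none was higher in both (0.328% of all genes): Nop58, Noc2l, Dhx9 and Ddx6. Nop58 stood at 0.34 and -0.058 without SCF, in Del417-419insY and D816V cells, and at -0.45 and -1.04 with SCF. Both arrays with SCF lay below both without, and the response was -0.79 and -0.98 (mean -0.89, SE 0.12, limma adjusted p = 0.13). Noc2l, a nucleolar protein of large subunit export that also inhibits histone acetylation, stood at 0.14 and 0.25 without SCF and at -0.665 and -0.49 with it. Its responses of -0.81 and -0.75 were nearly the same in both lines (limma adjusted p = 0.13). Dhx9 was lower by -0.65 and -1.02, from -0.045 and -0.35 to -0.70 and -1.36, and both of its probe sets were lower (-0.62 and -1.05 on average over the lines). Ddx6 responded by -0.71 in both lines, with averages over the lines of -0.23, -0.57 and -1.33 from its 3 probe sets; without the last it was -0.40. After centring these 4 passed the limma test, with adjusted p = 0.015 for Nop58, 0.023 for Dhx9, 0.025 for Noc2l and 0.033 for Ddx6. After cyclic loess Nop58 alone passed (limma adjusted p = 0.048). Calls rose over all 6404 genes too, from 0 to 143 lower and 113 higher after centring. After cyclic loess 29 genes were called lower and 13 higher. The 4 members had been picked by the size of the same responses that were then tested.

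The next lowest were Polr1a, the largest subunit of RNA polymerase I, at -0.48 in Del417-419insY and -0.63 in D816V cells, Rrs1 at -0.51 and -0.55, and Ncl at -0.55 and -0.39. None of the 3 passed (limma adjusted p = 0.16, 0.16 and 0.17). With SCF, Ncl and Rrs1 in Del417-419insY cells lay at -0.069 and -0.072, at the levels of D816V cells without SCF, -0.13 and -0.076. Nop56 shared the sign of Nop58 at a smaller size, -0.185 and -0.25.

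**Figure D3:**
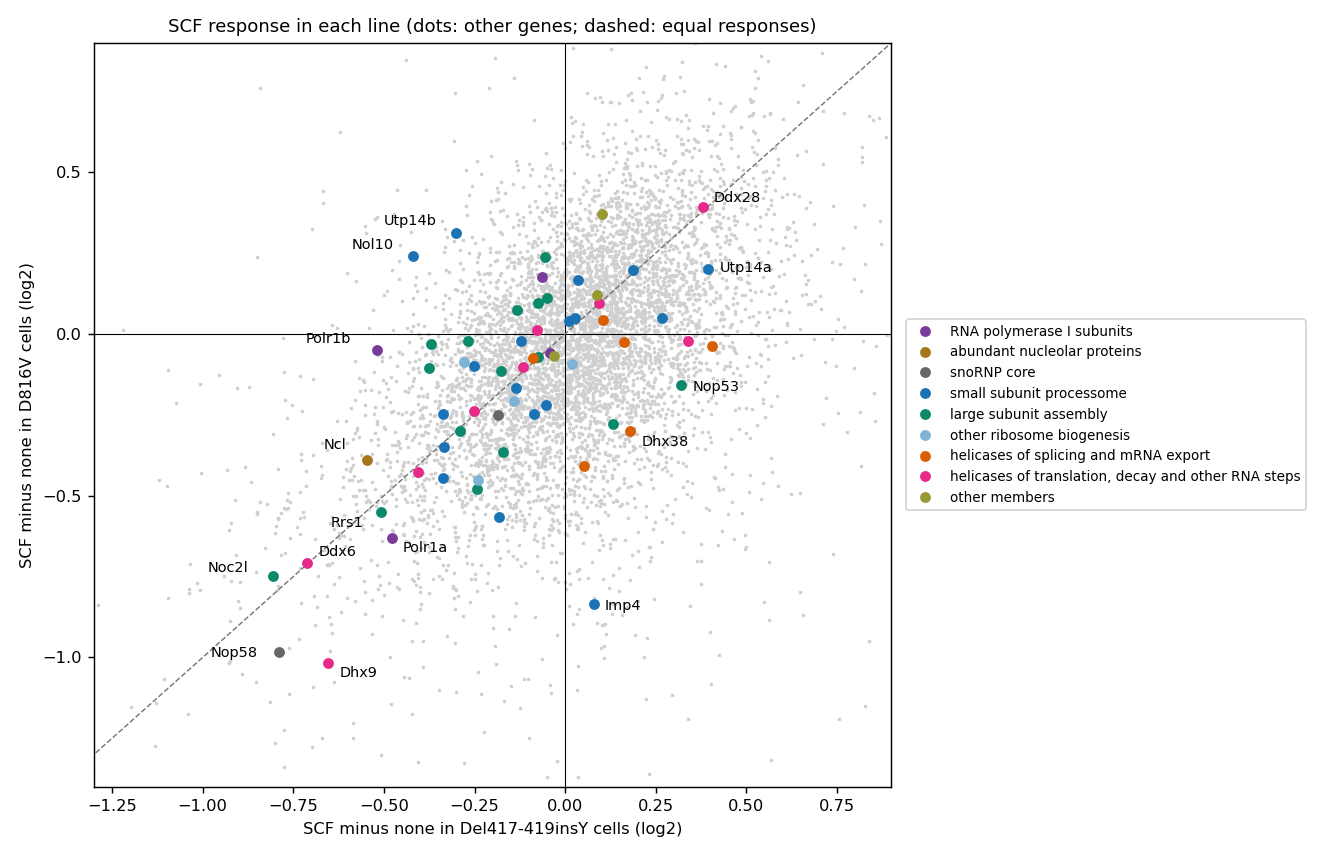
SCF response in Del417-419insY cells (horizontal, log2) against that in D816V cells (vertical, log2); coloured points are the 63 members by role, grey dots all genes, of which 89 lie outside the axes, and the dashed line marks equal responses. Nop58, Noc2l, Dhx9 and Ddx6 lie at the lower left, and Imp4 lies apart at 0.080 and -0.84.

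On the higher side the values were smaller. Ddx28, a helicase of mitochondrial ribosome assembly, had the highest mean among the members with 1 sign in both lines, with 0.38 and 0.39 (limma adjusted p = 0.20), from -0.43 and -0.645 without SCF to -0.047 and -0.25 with it. Utp14a was at 0.395 and 0.20, Dhx32 at 0.10 and 0.37, Ddx47, a small subunit helicase, at 0.19 and 0.20, and Ddx49 at 0.27 and 0.049. None passed.

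The lines differed in the response of a few members, which could not be tested with 1 array per group. Imp4 responded by 0.080 in Del417-419insY and by -0.84 in D816V cells, and the D816V array with SCF, at -1.54, lay far below the other 3, which were between -0.705 and 0.15. Nol10, a small subunit processome protein, went from -0.088 to -0.51 with SCF in Del417-419insY cells and from 0.061 to 0.30 in D816V cells. Utp14b responded by -0.30 and 0.31, so that its difference between the lines was -0.97 without SCF and -0.35 with it. Polr1b responded by -0.52 and -0.051. Dhx38 and Nop53, a large subunit factor that recruits the RNA exosome, had the opposite order, with 0.18 and -0.30 and with 0.32 and -0.16. Over the 63 members the difference between the responses had a median of 0.0010, against -0.061 over all genes; 2 members exceeded 1.5-fold upward (3.17%, against 1.94% of all genes) and 1 downward (1.59%, against 6.12%).

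To show the regions upstream of genes with a common response, the 250 bases before the start of the 3 members lower by 1.5-fold in both lines that have an entry (Nop58, Noc2l and Dhx9) are given with those of Imp4, whose response differed between the lines. They are RefSeq sequences of build GRCm38.p6, written 5′ to 3′ on the gene's strand, with the most upstream start where a gene has several, and capitals mark CACGTG, the letters of the E-box that MYC and MAX bind.
Nop58 (chr1:59684756-59685005, plus strand): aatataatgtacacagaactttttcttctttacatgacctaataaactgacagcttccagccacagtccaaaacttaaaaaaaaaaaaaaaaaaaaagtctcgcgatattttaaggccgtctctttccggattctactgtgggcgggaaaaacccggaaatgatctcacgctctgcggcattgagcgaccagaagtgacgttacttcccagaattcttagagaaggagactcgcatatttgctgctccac
Noc2l (chr4:156235760-156236009, plus strand): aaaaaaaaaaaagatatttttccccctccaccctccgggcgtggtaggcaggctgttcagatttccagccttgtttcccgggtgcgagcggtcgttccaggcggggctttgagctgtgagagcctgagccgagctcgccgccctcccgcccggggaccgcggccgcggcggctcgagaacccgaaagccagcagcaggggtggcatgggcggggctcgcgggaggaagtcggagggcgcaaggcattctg
Dhx9 (chr1:153487661-153487910, minus strand): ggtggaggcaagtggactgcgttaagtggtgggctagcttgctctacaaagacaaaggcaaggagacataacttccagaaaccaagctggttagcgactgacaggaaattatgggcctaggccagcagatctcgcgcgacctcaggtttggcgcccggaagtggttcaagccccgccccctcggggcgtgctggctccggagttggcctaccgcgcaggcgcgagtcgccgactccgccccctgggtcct
Imp4 (chr1:34439579-34439828, plus strand): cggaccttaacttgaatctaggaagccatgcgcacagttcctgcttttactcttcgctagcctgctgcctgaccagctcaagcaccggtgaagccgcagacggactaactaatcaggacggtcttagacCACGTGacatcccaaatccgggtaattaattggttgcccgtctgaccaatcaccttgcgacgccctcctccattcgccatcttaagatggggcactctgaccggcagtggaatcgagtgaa

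The search was for the 6 letters CACGTG, which read the same on both strands. Of these 4 windows only that of Imp4 holds them, from 121 to 116 bases before the start. Among the 53 members with an entry, 9 had the letters in at least 1 window (17%), against 10.5% of the 5248 genes of the table with an entry: Ddx5, Dhx33, Imp4, Nol11, Nop2, Rrp7a, Utp14b, Utp18 and Utp25. These include called and uncalled genes, and Ncl and Ddx18 have none in this window. A match is a description of letters and shows no binding.

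Other genes of the pathway lay outside the name patterns. Of 62 measured ribosome biogenesis genes in a further list, 7 were called lower and 1 higher in D816V cells. That is 12.9% called, against 42.6% of all genes. The median over the 62 was -0.028, against -0.10 over all genes. Wdr12, a partner of Bop1 in large subunit assembly, was at -1.08 (SE 0.14, limma adjusted p = 0.0045), with 0.72 and 0.26 in Del417-419insY and -0.20 and -0.99 in D816V cells, and Rpf1 was at -0.93. Wdr18 was the 1 called higher, at 0.47. With SCF, 38 of the 62 were below 0 in both lines (61.3%, against 33.2% of all genes), with medians of -0.115 and -0.12. After cyclic loess 40.3% were, against 26.0% of all genes. Of 11 RNA exosome genes none was called between the lines, and 6 were below 0 with SCF in both (54.5%, against 33.2% of all genes).

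Of 8 helicases outside the Ddx and Dhx names 2 were called higher, Ascc3 (0.57) and the antiviral helicase Mov10 (0.51), and 2 lower, the splicing helicases Snrnp200 (-0.51) and Aqr (-0.50). In the MYC family 2 of 7 measured genes were called, both higher in D816V cells: Mxd1 (1.27, limma adjusted p = 0.0018) and Mxi1 (0.47), which encode MAX partners that oppose MYC. Myc itself did not pass between the lines (0.048, limma adjusted p = 0.80), and its SCF responses were -0.054 and -0.44. Those of Max, named after its values were seen, were -0.30 and -1.11. Mxd1 responded by 0.14 and 0.069 and Mxi1 by 0.37 and 0.12. Over the 7 genes the median response was 0.12 in Del417-419insY and 0.069 in D816V cells. In both lines 3 of the 7 were below 0 and 4 above. Of 17 measured cell cycle genes 4 were called lower in D816V cells (23.5%, against 24.7% of all genes) and none higher. Mcm6 (-0.71) and Kif11 (-0.66) were the lowest. After centring, cyclic loess or quantile normalization 3 were called higher and 2 lower each time. With SCF, 11 of the 17 were below 0 in both lines, with medians of -0.076 and -0.14. That is 64.7%, against 55.6% of the members and 33.2% of all genes. What part MYC family and cell cycle genes have in the lower values of ribosome biogenesis genes with SCF was not tested.

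Probe sets of 1 gene gave a further look at these values. In 20 of the 23 members with several, all probe sets had the same sign of the genotype difference, and in 13 of 23 the same sign of the SCF difference. The median range between probe sets of a gene was 0.27 for the genotype and 0.26 for the SCF difference, larger than many members' differences, and the widest were 2.45 in Ddx18 and 1.10 in Ddx6. Both probe sets of Ncl and of Rrs1 were lower in D816V cells and lower with SCF. For Dhx36, a helicase that unwinds G-quadruplexes, 1 probe set was at 0.45 between the lines and the other two at -0.20 and -0.18, so that its mean of 0.020 stands for none of them.

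**Figure D4:**
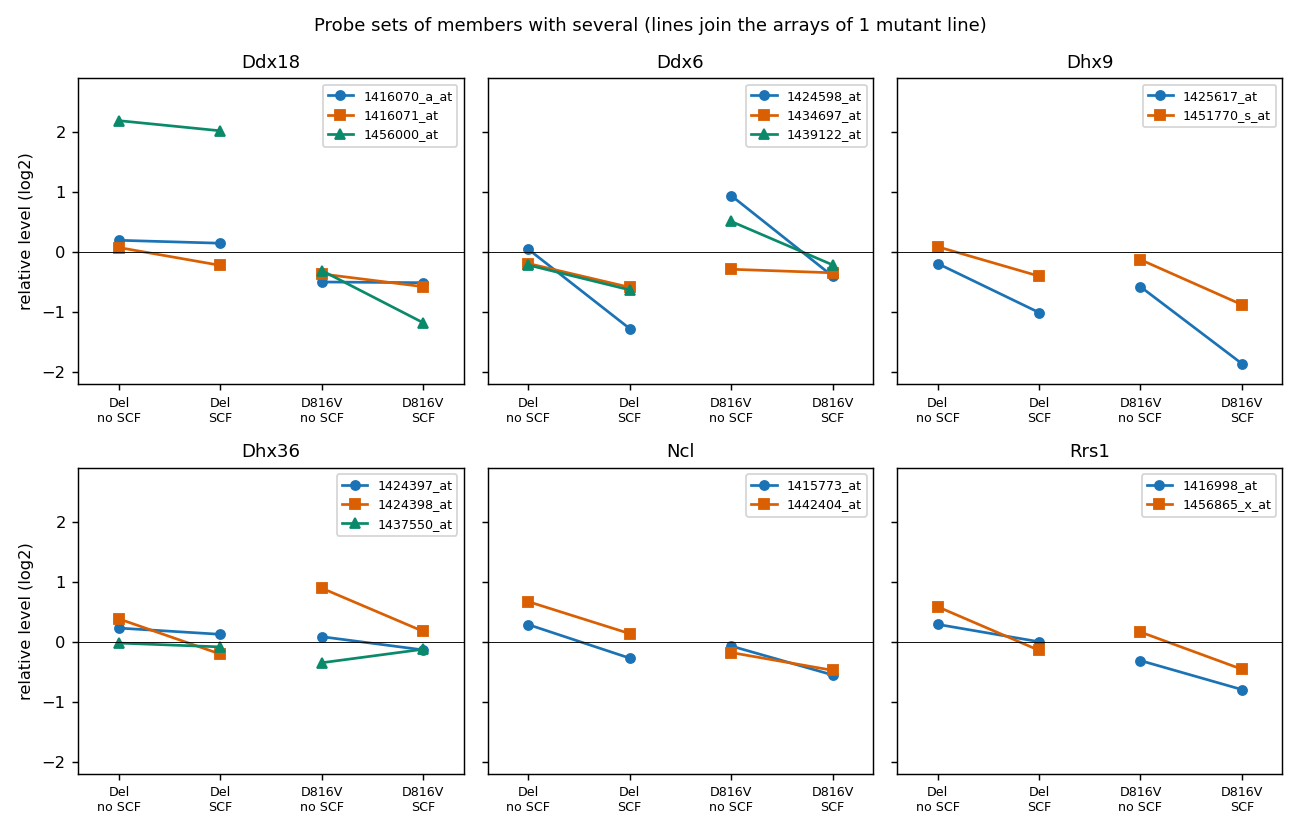
Relative log2 level of each probe set of 6 members on the 4 arrays, on 1 common axis; each line and marker is 1 probe set, joined within a mutant line. The Ddx18 probe set with triangles differs by -2.85 between the lines, the Ddx6 probe set with circles responds to SCF by -1.33 on average, and both probe sets of Ncl and of Rrs1 are lower with SCF in each line.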

How the data were processed

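RNA of 4 EML cultures was hybridised to Affymetrix M430 2.0 arrays, 1 array per group, per the labels. The submitters' processing notes name RMA, with no version, and the values as deposited by the authors were taken as log2, which RMA gives, although no source states the base. They lie around 0, relative to a level that is not given. Of the 45101 probe sets in the design text, 10861 were analysed, chosen by a rule that no source states, so every share refers to these. Brightness and detection were not used here, so signal over background is unknown.

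Platform symbols, matched by gene ID to RefSeq (GRCm38.p6; all 63 members matched), named 9633 probe sets with 1 symbol; 264 with several and 964 with none were left out. Probe sets of a gene were averaged. Genotype differences have Del417-419insY subtracted from D816V, and responses have the array without SCF subtracted. All 4 arrays entered 1 additive model of genotype and SCF (limma 3.58.1, R 4.3.3, eBayes, two-sided), calls at 0.05 after Benjamini-Hochberg adjustment across all 6404 genes; its prior SD was 0.13 on 4.1 degrees of freedom. It was tested on simulated data. Counts by size used 1.5-fold. The percentage of all genes stands beside the first count of members in each comparison, but not beside every role's count.

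Members, roles and lists were chosen with earlier results of these data known. Named were members called with 1.5-fold differences in both conditions, the highest and lowest of each role by genotype difference, the 5 highest and 5 lowest by SCF response among those of 1 sign, and the 3 with the most positive and the 3 with the most negative difference between responses, and, of other lists, the 2 largest called each way. Other members are named after their values were seen, to account for a group's calls. Motif shares use the 250 bases upstream of RefSeq starts; 10 members had no entry. Alternatives were 3 scalings, the probe set with the highest mean, leaving out the lowest 25% of genes, and 3 changes to the fit.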

Additional observations from a re-analysis of the deposited data

Results flagged for a closer look

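In 5 of the members named for a large difference between responses, the SCF response had opposite signs in the lines. Each side had 1 array, and this difference was not tested. The response in D816V cells minus that in Del417-419insY cells was -0.916 for Imp4, -0.481 for Dhx38, -0.479 for Nop53, 0.661 for Nol10 and 0.614 for Utp14b. In all, 17 of 63 members (27%) had responses of opposite sign, against 34.3% of all genes. The median size of the difference was 0.16 over the members and 0.19 over all genes.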

How the results depend on the processing

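Of 28 differences of single named members, 14 kept their direction and their side of the threshold under each of the 8 other settings that could be computed for them. Of the 14, only the genotype differences of Ddx18, Ddx49, Ddx59, Imp4 and Utp25 were calls. The rest kept their side by staying uncalled throughout. Imp4 had no value without the lowest 25% of genes. Ddx18, Ddx49, Ddx59, Utp14b and Utp25 were called in 1 direction under all of these settings. Members called higher in D816V cells were 12 after centring, 11 after cyclic loess, 11 after quantile normalization and 1 without the SCF term. The SCF term left out gave 5 members called lower, and cyclic loess gave 9. Members called lower with SCF were 4 after centring, 1 after cyclic loess and 4 with the highest-mean probe set. Over all 6404 genes 143 were called lower after centring and 29 after cyclic loess. The 2 sets of 4 were not the same genes. Centring gave Ddx6, Dhx9, Noc2l and Nop58, while choosing probe sets by their mean gave Dhx36, Noc2l, Nop58 and Rrs1. Without SCF, 2 members were 1.5-fold higher in D816V cells after centring, cyclic loess and with the highest-mean probe set. With SCF they were 6, 10, 7 and 4 after centring, cyclic loess, quantile normalization and with the highest-mean probe set, and the lower ones were 4 after loess, 4 after quantile normalization and 3 without the lowest 25% of genes. The median genotype difference with SCF became -0.0030 after centring, 0.086 after cyclic loess and 0.047 after quantile normalization. With SCF in Del417-419insY cells, 1 member was 1.5-fold higher with the highest-mean probe set and 2 were lower without the lowest 25%. In D816V cells 3 were lower after quantile normalization, 10 with the highest-mean probe set and 3 without the lowest 25%. Without the lowest 25% 22 members were below 0 with SCF in both lines, with fewer genes tested. Ddx19b reversed to 0.033 after cyclic loess, and Nop56 to 0.086 there and to 0.025 after quantile normalization. The cause of these changes was not tested. As values are relative, neither the highest mean nor the lowest 25% marks brightness. The model already compares SCF within each line. No paired analysis by replicate was possible because each group had 1 array, and leaving out an array leaves no residual.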
